A study of Mus musculus with 26 samples.

Results

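The D-type and E-type cyclins, the cyclin-dependent kinase CDK6, and the inhibitors of these kinases set the pace at which a cell leaves the G1 phase. The 10 mouse genes *Ccnd1*, *Ccnd2*, *Ccnd3*, *Ccne1*, *Ccne2*, *Cdk6*, *Cdkn1b*, *Cdkn2a*, *Cdkn2b*, and *Cdkn2c* were taken by symbol from a table of 52962 gene identifiers, and all 10 were among the 15402 genes with enough counts to be tested. Their transcripts were measured by RNA-seq in 26 libraries of 9 groups, 3 libraries per group except for the 2 of ∆CT cells with insulin. All lines descended from brown preadipocytes of newborn mice carrying floxed insulin receptor and IGF1 receptor alleles, immortalized with a retrovirus for SV40 T-antigen and then treated with Cre adenovirus, which gave double knockout (DKO) cells without either receptor. DKO cells carried an empty retroviral vector, and the other lines carried the same vector with FLAG-tagged human insulin receptor, as the intact receptor (IR), the kinase-dead mutant K1030R, a truncation without the C-terminal tail (∆CT), or a truncation that keeps of the intracellular part only the juxtamembrane stretch (JMO). Every culture was serum starved for 6 h, and the 4 receptor lines were sampled both untreated and after 15 min with 100 nM insulin, whereas DKO cells were sampled untreated only. Each receptor stands for 1 transduced line, so the libraries of a group are repeats within that line. A difference between lines and a difference between receptors cannot be told apart. Nothing in the labels says that the 3 libraries came from separate cultures or experiments, and the p-values measure only the spread between these libraries.

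In G1, a D-type cyclin binds CDK4 or CDK6 and the complex phosphorylates the retinoblastoma protein, which then releases E2F transcription factors; cyclin E with CDK2 continues that phosphorylation at the entry to S phase. p27, encoded by *Cdkn1b*, restrains cyclin E and CDK2, and the INK4 proteins p16, p15, and p18, encoded by *Cdkn2a*, *Cdkn2b*, and *Cdkn2c*, bind CDK4 and CDK6 and keep D-type cyclins away. *Cdkn2a* also encodes the ARF protein from another first exon, which stabilizes p53, and p16, p15, and p21 transcripts are commonly used as marks of senescence. SV40 large T-antigen binds both the retinoblastoma family and p53, so all 5 lines, DKO included, share its activity.

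The genes lie on 5 mouse chromosomes in build GRCm38. *Cdkn2a* (chr4:89274471-89294653) and *Cdkn2b* (chr4:89306299-89311039) are neighbours on the minus strand. *Cdkn2c* (chr4:109660876-109667189, minus strand) and *Ccne2* (chr4:11191351-11204779, plus strand) lie elsewhere on that chromosome. *Ccnd1* (chr7:144929931-144939925) and *Ccne1* (chr7:38097984-38107534) lie on the minus strand of chromosome 7. *Ccnd2* (chr6:127125162-127152193, minus strand) and *Cdkn1b* (chr6:134920401-134925513, plus strand) lie on chromosome 6. *Cdk6* (chr5:3341485-3531008) and *Ccnd3* (chr17:47505051-47599691) are on the plus strand of their chromosomes.

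The DNA just upstream of the start is shown for the genes whose levels separated the lines in different ways, *Ccne1* and *Cdk6*, which were lower in IR, K1030R, and ∆CT than in DKO cells, *Cdkn1b*, which was higher in these 3 lines, and *Cdkn2a*, which was higher in IR cells. The sequences are RefSeq windows of build GRCm38.p6, written 5′ to 3′ on the gene's strand and ended where an annotated exon of the gene begins. Those of *Cdk6* and of the near *Cdkn2a* start lie inside the annotated gene, upstream of an internal start. RefSeq windows were found for 7 of the 10 genes; *Ccnd1*, *Ccnd2*, and *Ccne2* were the others. Capitals mark the letters searched for, which were the E2F words TTTCCCGC, TTTCGCGC, TTTGCCGC, and TTTGGCGC, the FOXO word GTAAACA, and the SP1 word GGGCGG, on both strands.
*Ccne1*, chr7:38107535-38107740, minus strand: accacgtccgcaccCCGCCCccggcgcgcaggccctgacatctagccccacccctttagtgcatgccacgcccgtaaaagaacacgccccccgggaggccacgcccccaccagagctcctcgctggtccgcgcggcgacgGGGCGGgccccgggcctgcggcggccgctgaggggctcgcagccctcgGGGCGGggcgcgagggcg
*Cdk6*, chr5:3343643-3343731, plus strand: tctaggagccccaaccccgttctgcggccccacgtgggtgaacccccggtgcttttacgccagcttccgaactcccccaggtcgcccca
*Cdkn1b*, chr6:134920151-134920400, plus strand: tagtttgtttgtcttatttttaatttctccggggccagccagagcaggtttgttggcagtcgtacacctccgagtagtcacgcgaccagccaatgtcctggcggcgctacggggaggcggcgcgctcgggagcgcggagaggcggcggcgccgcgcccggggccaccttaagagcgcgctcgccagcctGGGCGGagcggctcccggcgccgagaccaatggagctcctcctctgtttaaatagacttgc
*Cdkn2a*, far start, chr4:89294654-89294869, minus strand: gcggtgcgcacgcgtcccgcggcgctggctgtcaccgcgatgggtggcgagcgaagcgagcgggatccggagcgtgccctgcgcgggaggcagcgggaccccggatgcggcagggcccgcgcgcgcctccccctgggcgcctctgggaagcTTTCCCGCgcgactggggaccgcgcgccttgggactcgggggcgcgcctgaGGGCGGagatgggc
*Cdkn2a*, near start, chr4:89282193-89282442, minus strand: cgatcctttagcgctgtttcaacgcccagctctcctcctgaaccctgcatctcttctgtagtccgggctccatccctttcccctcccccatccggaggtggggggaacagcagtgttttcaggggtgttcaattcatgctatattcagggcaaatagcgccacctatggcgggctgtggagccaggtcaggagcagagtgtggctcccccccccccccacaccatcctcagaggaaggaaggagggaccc
The *Ccne1* sequence held 3 SP1 words in 206 bases and no E2F word from this list, and 78.2% of it was G or C. The far *Cdkn2a* start held 1 E2F word and 1 SP1 word in 216 bases, whereas the near start held none of the searched words in 250 bases. The *Cdkn1b* sequence held 1 SP1 word and the 89 bases of *Cdk6* held none. No stretch shown held a FOXO word. Among the windows not shown, a *Ccnd3* window held 1 FOXO word, and the *Cdkn2b* window held none of the searched words. Of 32851 mouse windows of 250 bases, 1.86% held an E2F word, 3.17% a FOXO word, and 32.7% an SP1 word, so the SP1 word was common. These windows were not cut at exons, unlike the stretches shown. In its full window *Ccne1* held 4 SP1 words, and the far *Cdkn2a* start held 2. A match describes the letters only, and the counts below sum the transcripts from both *Cdkn2a* starts.

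Read totals were 17228982 to 24694828 counts per library, and levels are given as counts scaled to library size (CPM), adjusted by the TMM factors, which were 0.966 to 1.05. The rarest of the genes, *Ccnd2*, had at least 58 counts in every library. *Insr*, counted on mouse transcripts, was at 22.3 to 24.8 CPM in DKO cells and at 65.5 to 99.6 CPM in the receptor lines, so every receptor library was above every DKO library; the part of human receptor reads in these counts was not tested. Of 12 brown preadipocyte and fibroblast markers, 8 were tested, while *Dlk1*, *Ebf2*, *Prdm16*, and *Zfp423* stayed below the filter. Of the 8, 5 were higher and 3 lower in IR than in DKO cells, against 25.6% and 24.1% of all tested genes. Of the 8 mature brown adipocyte markers 2 were tested and *Ucp1* was at 0 in all untreated groups. Of the 6 myoblast, 6 endothelial, and 6 macrophage markers, 1, 1, and 3 were tested, and *Myod1*, *Myf5*, *Cldn5*, and *Adgre1* were at 0 in all 26 libraries. The summed macrophage list was 14.3 to 16.7 CPM in DKO cells, 12.8 to 15.0 in JMO, 8.40 to 10.2 in IR, 7.91 to 8.45 in K1030R, and 7.82 to 8.13 in ∆CT cells. *Ly6a*, an antigen of mesenchymal progenitors, was at 44.8 ± 3.70 CPM in DKO cells and at 2.90 to 10.7 CPM on average in the receptor lines. Other markers of that list went the other way. Between the mean of IR, K1030R, and ∆CT and the mean of DKO and JMO cells, *Cd34* was at 1.57 and *Thy1* at 0.93 on the log2 scale. *Ly6a* was at -2.62 and *Pdgfrb* at -0.044 there. *Col1a1* was at 3261 CPM in DKO, 3732 in JMO, and 6094 to 7246 in the other receptor lines. These markers moved with the lines that the next results compare, and their part in those results was not tested.

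Relative to transcript length, the inhibitors stood above the cyclins in DKO cells. Per kilobase of annotated exon, *Cdkn2a* was at 286 CPM, higher than 99.4% of the 15193 tested genes with a length, followed by *Cdkn2b* at 44.5, *Cdkn1b* at 34.9, and *Cdkn2c* at 28.8 CPM per kilobase. *Ccne2* was at 16.2, *Ccnd1* at 10.3, *Ccnd3* at 9.58, *Ccne1* at 8.13, *Cdk6* at 6.95, and *Ccnd2* at 0.727 CPM per kilobase. *Ccnd1* and *Ccnd3* thus made up most of the D-type cyclin transcripts per length. In DKO cells *Ccnd1* was 49.9 ± 3.16% (SD, n = 3) of the 3 D-type cyclins on this scale and *Ccnd3* was 46.6 ± 3.41%. In IR cells the *Ccnd1* share was 29.3 ± 1.82% and the *Ccnd3* share 67.6 ± 2.002%. JMO cells had a *Ccnd1* share of 41.4 ± 2.91%, ∆CT cells 45.7 ± 7.15%, and K1030R cells 48.6 ± 5.11%. These shares use the summed exon length of each gene, which can be longer than the transcripts that the cells make.

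**Figure D1:**
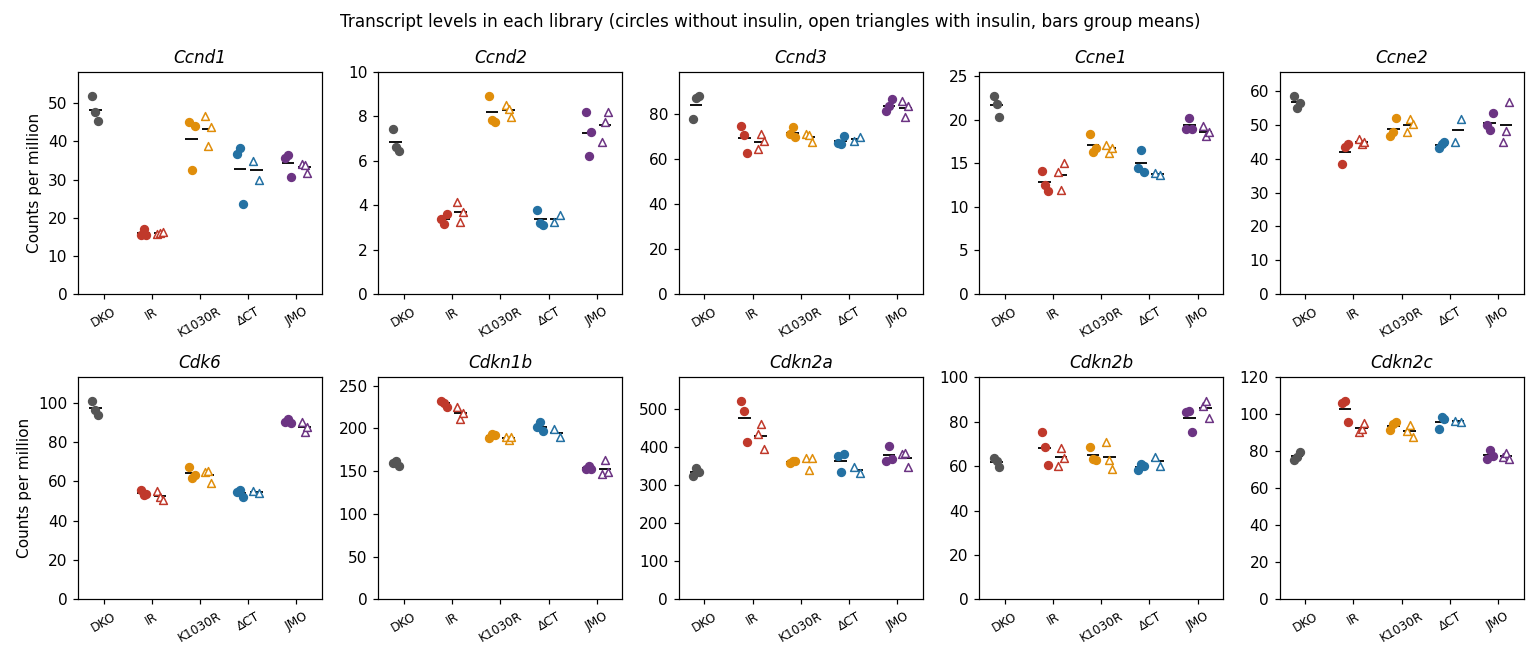
Level of each of the 10 genes in every library, in CPM on an axis that starts at 0, by cell line; filled circles are libraries without insulin, open triangles libraries with insulin, and bars group means. *Ccnd1* is lowest in all 6 IR libraries, at 15.4 to 17.04 CPM, *Ccnd2* is low in IR and ∆CT cells alike, and *Cdkn2b* has its highest mean in JMO cells, at 75.2 to 89.3 CPM.

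Cyclins and *Cdk6* were lower and *Cdkn1b* and *Cdkn2c* higher in IR, K1030R, and ∆CT cells than in DKO cells. The exceptions were *Ccnd1* (log2 difference -0.25) and *Ccnd2* (0.26, the other way) in K1030R cells, which did not pass in the main fit. In IR cells 9 of the 10 genes differed from DKO cells at an adjusted p below 0.05 (edgeR quasi-likelihood test, Benjamini-Hochberg over all 15402 genes), 6 lower and 3 higher, where 49.8% of all tested genes differed, 24.1% lower and 25.6% higher. In ∆CT cells 8 of 10 differed, 6 lower and 2 higher, against 46.3% of all genes (22.9% lower and 23.4% higher). In K1030R cells 6 of 10 differed, 4 lower and 2 higher, against 41.6% (20.4% lower and 21.2% higher), and in JMO cells 3 of 10, 2 lower and 1 higher, against 34.2% (17.4% lower and 16.8% higher). The share of these genes in JMO cells was thus near that of all genes, and the shares in IR and ∆CT cells were above it. With a required change of more than 1.5-fold (edgeR glmTreat), 3 genes remained in IR cells (*Ccnd1*, *Ccnd2*, and *Cdk6*), against 6.89% of all genes, 2 in ∆CT cells (*Ccnd2* and *Cdk6*), against 6.29%, 0 in K1030R cells, against 5.29%, and 0 in JMO cells, against 2.11%. In a single test of any difference among the 5 untreated lines, all 10 genes passed, as did 65.8% of all genes. The 4 comparisons share the 3 DKO libraries, and a chance deviation of these would enter all of them. In these bulk samples, fewer cells of a type and less RNA per cell cannot be told apart.

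**Figure D2:**
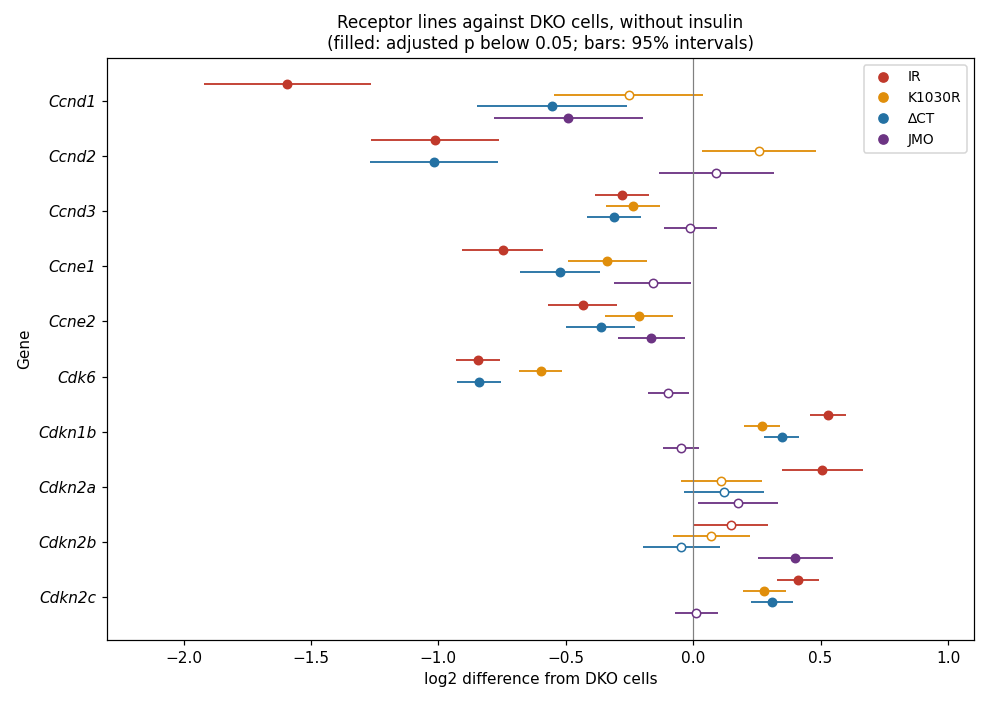
log2 difference from DKO cells of the 10 genes in untreated IR, K1030R, ∆CT, and JMO cells, with 95% confidence intervals; filled points have an adjusted p below 0.05. The cyclins and *Cdk6* lie left of 0 in IR and ∆CT cells, from -0.28 to -1.59, and *Cdkn1b* and *Cdkn2c* lie right of 0 in IR, K1030R, and ∆CT cells, from 0.27 to 0.53.

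*Ccnd1* encodes cyclin D1, the D-type cyclin most closely tied to mitogen signals. The 3 DKO libraries held 52.0, 47.6, and 45.4 CPM of *Ccnd1*, and the 3 IR libraries held 15.6, 17.04, and 15.4 CPM. The K1030R libraries held 45.1, 32.5, and 44.1 CPM, the ∆CT libraries 36.6, 38.2, and 23.5 CPM, and the JMO libraries 35.8, 36.4, and 30.7 CPM. All IR libraries were below every library of the other lines, whereas the K1030R, ∆CT, and JMO libraries overlapped one another and 1 library each of K1030R and ∆CT stood below its group. *Ccnd1* was 3.02-fold lower in IR than in DKO cells (log2 difference -1.59, 95% interval -1.92 to -1.27, adjusted p = 7.61e-08). It was lower by smaller amounts in ∆CT (-0.55, adjusted p = 0.00324) and JMO cells (-0.49, adjusted p = 0.0103), and in K1030R cells the difference of -0.25 did not pass (interval -0.54 to 0.04, adjusted p = 0.162). Without the low ∆CT library, the ∆CT difference was -0.37 (adjusted p = 0.0111) and the K1030R difference of -0.25 passed (adjusted p = 0.0465), and without the lowest JMO library the JMO difference of -0.42 did not pass (adjusted p = 0.0528). The K1030R difference also passed without a filter on low counts (-0.24, adjusted p = 0.000106). Against the other receptor lines, *Ccnd1* was 2.53-fold lower in IR than in K1030R cells (adjusted p = 3.2e-06), 2.05-fold lower than in ∆CT cells (adjusted p = 8.75e-05), and 2.15-fold lower than in JMO cells (adjusted p = 1.61e-05). In GENCODE transcripts, 22.3% of the 31-base words of *Ccnd1* also occur in *LTO1*, whose exons overlap it on the opposite strand; *LTO1* was at 15.5 CPM in DKO and 13.2 CPM in IR cells.

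*Ccnd2*, which encodes cyclin D2, separated the lines in another way. Its libraries held 7.44, 6.64, and 6.44 CPM in DKO cells, 3.37, 3.15, and 3.60 CPM in IR cells, and 3.79, 3.19, and 3.10 CPM in ∆CT cells. They held 8.93, 7.85, and 7.76 CPM in K1030R cells and 8.21, 6.22, and 7.28 CPM in JMO cells. All IR and ∆CT libraries thus lay below all libraries of DKO, K1030R, and JMO cells, with no overlap. *Ccnd2* was 2.02-fold lower than in DKO cells both in IR (log2 difference -1.01, adjusted p = 1.53e-08) and in ∆CT cells (-1.02, adjusted p = 1.71e-08). The differences of 0.26 in K1030R (interval 0.03 to 0.48, adjusted p = 0.0603) and 0.09 in JMO cells (interval -0.13 to 0.32, adjusted p = 0.573) did not pass. The K1030R difference passed with limma voom (0.26, adjusted p = 0.0438) and without DKO replicate 1 (0.32, adjusted p = 0.0413). IR and ∆CT keep an intact kinase domain, which K1030R carries in an inactive form and JMO lacks. The part of the kinase domain in the *Ccnd2* levels was not tested. *Ccnd2* was 2.42-fold lower in ∆CT than in K1030R cells (log2 difference -1.27, interval -1.52 to -1.03, adjusted p = 5.77e-09), a size reached by only 0.708% of all tested genes in that comparison. Of the 10 genes, 2 passed between ∆CT and K1030R cells, *Ccnd2* and *Cdk6*, against 3.43% of all genes, and *Ccnd2* also passed with the 1.5-fold requirement, against 0.039%. Between IR and ∆CT cells, the *Ccnd2* interval was -0.28 to 0.27 (adjusted p = 0.991). Levels of 3 to 9 CPM are low, and the spread between libraries was up to 0.994 CPM (JMO, n = 3).

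*Ccnd3*, encoding cyclin D3, moved least among the D-type cyclins. It was at 84.1 ± 5.76 CPM (SD, n = 3) in DKO and 83.6 ± 2.77 CPM in JMO cells, and at 71.5 ± 2.21, 69.2 ± 6.15, and 67.9 ± 1.80 CPM in K1030R, IR, and ∆CT cells. The latter 3 lines were lower than DKO cells (log2 differences -0.23, -0.28, and -0.31, largest adjusted p = 0.0004) and did not overlap with it. JMO and DKO cells differed by -0.01, with an interval of -0.11 to 0.09 (adjusted p = 0.9). *Ccnd3* shares exon sequence with *Bysl* on the opposite strand and with *Ccnd3-ps*, and 7.95% of its 31-base words occur in other genes.

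*Cdk6*, the kinase partner, split the lines into a high and a low set. Its libraries held 101, 96.6, and 94.0 CPM in DKO cells and 90.4, 92.0, and 90.01 CPM in JMO cells. They held 67.3, 61.9, and 63.4 CPM in K1030R, 55.4, 53.0, and 53.7 CPM in IR, and 54.6, 55.8, and 52.2 CPM in ∆CT cells. DKO and JMO cells formed a high pair without reaching one another, K1030R cells lay between, and IR and ∆CT cells overlapped at the low end. *Cdk6* was 1.80-fold lower in IR (log2 difference -0.85, adjusted p = 2.37e-18), 1.79-fold lower in ∆CT (-0.84, adjusted p = 3.61e-18), and 1.51-fold lower in K1030R than in DKO cells (-0.60, adjusted p = 3.52e-14). In JMO cells the difference was -0.10 (interval -0.18 to -0.02, adjusted p = 0.0555), which passed under RLE scaling (adjusted p = 0.0405), with a filter of 10 counts (adjusted p = 0.0418), in a fit of the 2 groups (adjusted p = 0.0241), and in 5 of 26 fits that left out 1 library. ∆CT cells were below K1030R cells (-0.24, adjusted p = 0.000584), whereas ∆CT and IR cells differed by 0.00 with an interval of -0.08 to 0.09 (adjusted p = 0.962). *Cdk4*, which encodes the other D-type cyclin kinase, was at 425 ± 7.49 CPM in DKO, 469.7 ± 14.5 CPM in IR, and 356 ± 5.35 CPM in JMO cells. It was thus slightly higher in IR (0.14, adjusted p = 8.7e-05) and lower in JMO cells (-0.26, adjusted p = 1.2e-08).

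*Ccne1* and *Ccne2*, the E-type cyclins, followed a graded order with DKO cells highest and IR cells lowest. *Ccne1* was at 22.8, 21.8, and 20.4 CPM in the DKO libraries and at 14.1, 12.5, and 11.8 CPM in the IR libraries. JMO libraries held 18.9, 20.2, and 19.0 CPM, K1030R libraries 18.3, 16.2, and 16.8 CPM, and ∆CT libraries 14.5, 16.6, and 14.01 CPM. No receptor line reached the lowest DKO library, while neighbouring receptor lines in this order came close or overlapped. *Ccne1* was 1.68-fold lower in IR cells (log2 difference -0.75, adjusted p = 5.9e-10), 1.44-fold lower in ∆CT (-0.52, adjusted p = 6.67e-07), and 1.26-fold lower in K1030R cells (-0.34, adjusted p = 0.00045); in JMO cells the difference was -0.16 (interval -0.31 to -0.01, adjusted p = 0.0961). *Ccne2* was at 56.7 ± 1.85 CPM in DKO, 50.6 ± 2.59 in JMO, 48.9 ± 2.84 in K1030R, 44.1 ± 0.939 in ∆CT, and 42.1 ± 3.17 CPM in IR cells. Its log2 differences from DKO cells were -0.43 in IR, -0.36 in ∆CT, -0.21 in K1030R, and -0.16 in JMO cells. The JMO value sat at the threshold (adjusted p = 0.0492) and missed it in 18 of 26 fits that left out 1 library and with limma voom (adjusted p = 0.0507). Of the neighbours in the order of *Ccne1*, only ∆CT and IR cells passed (adjusted p = 0.0381), a call that was lost with limma voom and DESeq2, and of those of *Ccne2*, only DKO and JMO cells. *Ccne2* shares 15.6% of its 31-base words with *Ints8* on the opposite strand, which was at 58.0 CPM in DKO and 53.3 CPM in IR cells. *Cdk2*, which encodes the partner of cyclin E, was lower than in DKO cells in all 4 receptor lines by small amounts, from -0.17 in K1030R to -0.10 in JMO cells.

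*Cdkn1b*, encoding p27, was higher in IR, ∆CT, and K1030R than in DKO and JMO cells. Its libraries held 159, 162, and 156 CPM in DKO cells, 152, 156, and 152 CPM in JMO cells, and 189, 194, and 192 CPM in K1030R cells. They held 202, 207, and 196 CPM in ∆CT and 232, 230.1, and 226 CPM in IR cells. IR, ∆CT, and K1030R cells were each above DKO and JMO cells without overlap, and IR cells were above all. *Cdkn1b* was 1.44-fold higher in IR than in DKO cells (log2 difference 0.53, adjusted p = 4.06e-15), 1.27-fold higher in ∆CT (0.35, adjusted p = 2.16e-10), and 1.21-fold higher in K1030R cells (0.27, adjusted p = 5.49e-08). JMO cells differed by -0.05 (interval -0.12 to 0.02, adjusted p = 0.297). In *Cdkn2c*, encoding the INK4 inhibitor p18, the same 3 lines were above DKO cells. It was at 77.3 ± 2.31 CPM in DKO, 78.0 ± 2.61 in JMO, 93.9 ± 2.28 in K1030R, 95.9 ± 3.58 in ∆CT, and 103 ± 6.37 CPM in IR cells. Its log2 differences were 0.41, 0.31, and 0.28 in IR, ∆CT, and K1030R cells (largest adjusted p = 8.95e-07) and 0.01 in JMO cells (interval -0.07 to 0.10, adjusted p = 0.87).

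*Cdkn2a* and *Cdkn2b*, the neighbouring genes used as senescence marks, were highest in different lines. *Cdkn2a* libraries held 326, 345, and 336 CPM in DKO cells and 522, 495, and 414 CPM in IR cells. They held 358, 365, and 364 CPM in K1030R cells, 376, 337, and 382 CPM in ∆CT cells, and 365, 405, and 369 CPM in JMO cells. Every untreated IR library was above every untreated library of the other 4 lines, with the widest spread of all groups (56.2 CPM, SD, n = 3). With insulin, the lowest IR library was at 395 CPM. *Cdkn2a* was 1.42-fold higher in IR than in DKO cells (log2 difference 0.51, interval 0.35 to 0.66, adjusted p = 1.31e-05). It was also higher in IR cells than in K1030R (1.32-fold, adjusted p = 0.00043), ∆CT (1.31-fold, adjusted p = 0.000675), and JMO cells (1.26-fold, adjusted p = 0.00136). The differences from DKO cells in the other lines were 0.11 (K1030R), 0.12 (∆CT), and 0.18 (JMO) and did not pass (adjusted p = 0.268, 0.209, and 0.0787). Without a filter on low counts all 3 passed (adjusted p = 0.0103, 0.00365, and 9.02e-05), in fits of the 2 compared groups K1030R and JMO cells passed (adjusted p = 0.00733 and 0.0015), and JMO cells also passed with limma voom (adjusted p = 0.0483) and without IR replicate 3 (adjusted p = 0.0221). Since the counts of the gene sum both first exons, p16 and ARF transcripts cannot be told apart.

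*Cdkn2b*, encoding p15, stood out in JMO cells instead. JMO libraries held 84.5, 84.6, and 75.2 CPM and DKO libraries 63.4, 62.4, and 59.6 CPM. IR libraries held 75.4, 68.7, and 60.5 CPM, K1030R libraries 68.4, 63.4, and 62.9 CPM, and ∆CT libraries 58.3, 60.8, and 60.2 CPM. JMO cells were above all other lines except that the highest IR library reached the lowest JMO library, and DKO libraries overlapped with those of IR, K1030R, and ∆CT cells. *Cdkn2b* was 1.32-fold higher in JMO than in DKO cells (log2 difference 0.40, interval 0.25 to 0.55, adjusted p = 9.93e-05), and higher than in IR (1.19-fold, adjusted p = 0.0048), K1030R (1.26-fold, adjusted p = 0.000696), and ∆CT cells (1.36-fold, adjusted p = 1.92e-05). In IR cells the difference from DKO of 0.15 did not pass (adjusted p = 0.0959), with values from 0.064 to 0.23 when 1 library was left out. It passed without the lowest IR library (0.23, adjusted p = 0.00666) and without a filter on low counts (0.15, adjusted p = 0.00553). *Cdkn1a*, which encodes the p53 target p21, was likewise highest in JMO cells, at 73.1 ± 3.07 CPM against 41.5 ± 2.15 CPM in DKO cells (log2 difference 0.81, adjusted p = 1.6e-14). It was at 47.3 ± 0.954 CPM in IR (0.18, adjusted p = 0.0048), 44.9 ± 3.72 CPM in K1030R, and 41.1 ± 2.19 CPM in ∆CT cells.

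The design also asks what IR, K1030R, and ∆CT cells, whose receptors keep the kinase domain in working or inactive form, share against DKO and JMO cells, which have none. In the contrast of these 2 means, all 10 genes passed, 7 lower and 3 higher, where 52.3% of all tested genes passed, 25.6% lower and 26.7% higher. *Cdk6* had the largest value, -0.71 (SE 0.0265, adjusted p = 4e-22), and was the only 1 of the 10 to pass with the 1.5-fold requirement, against 5.67% of all genes. *Ccnd2* was at -0.64, *Ccnd1* at -0.55, *Ccne1* at -0.46, *Ccnd3* at -0.27, and *Ccne2* at -0.25. *Cdkn1b* was at 0.41 and *Cdkn2c* at 0.33. *Cdkn2a*, at 0.16 (adjusted p = 0.0105), and *Cdkn2b*, at -0.14 (adjusted p = 0.0116), were the smallest. A mean of lines hides that they differ: *Ccnd2* was low in IR and ∆CT but not K1030R cells, *Ccnd1* and *Cdkn2a* stood apart in IR cells, and *Cdkn2b* in JMO cells. *Cdk6*, *Ccnd3*, *Ccne1*, *Cdkn1b*, and *Cdkn2c* had all untreated libraries of IR, K1030R, and ∆CT cells on one side of all untreated DKO and JMO libraries. The share of all tested genes that separated in this way was not computed, so this may be common.

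Between pairs of receptor lines, the number of these genes that passed followed the pattern of the single genes. All 10 differed between JMO and IR cells, against 42.4% of all genes, and 8 between JMO and ∆CT cells, against 38.8%. Between K1030R and IR cells 8 differed, against 30.2%, and between JMO and K1030R cells 5, against 35.4%. The full receptor and ∆CT differed in 4, against 26.1%, namely *Ccnd1* and *Ccne1*, higher in ∆CT, and *Cdkn1b* and *Cdkn2a*, lower in ∆CT. Of these, the *Ccne1* difference of 0.22 (adjusted p = 0.0381) did not pass with limma voom (adjusted p = 0.0522), DESeq2 (adjusted p = 0.0622), or no filter (adjusted p = 0.0553). It was 0.019 in the libraries with insulin (adjusted p = 0.927), and 3 fits that left out 1 library lost the call, with 0.15 without ∆CT replicate 2 (adjusted p = 0.266), 0.17 without IR replicate 3 (adjusted p = 0.164), and 0.21 without IR replicate 2 (adjusted p = 0.112). In the libraries with insulin, the same pairs gave 9 of 10 for JMO and IR (40.2% of all genes), 7 for JMO and ∆CT (33.1%), 6 for K1030R and IR (34.0%), 6 for JMO and K1030R (38.4%), 3 for ∆CT and IR (19.7%), and 2 for ∆CT and K1030R (5.03%). *Ccnd1* was lower in IR than in K1030R, ∆CT, and JMO cells there too, by 1.42, 1.01, and 1.04 on the log2 scale. *Ccnd2* was again lower in ∆CT than in K1030R cells (-1.28, adjusted p = 2.65e-08).

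Few of these transcripts differed after 15 min of insulin. Of 10 genes, 1 passed in IR cells, where 1.87% of all genes passed, and 0 passed in K1030R (0.156% of all genes), ∆CT (1.01%), and JMO cells (0.364%); at an unadjusted p below 0.05 the counts were 2, 0, 0, and 0, and limma voom and DESeq2 called none in any line. The gene was *Cdkn2c*, with 106, 107, and 95.5 CPM without and 90.5, 91.8, and 95.4 CPM with insulin in IR cells (log2 difference -0.15, interval -0.23 to -0.07, adjusted p = 0.0397). The lowest library without insulin was just above the highest with insulin, and the call was lost with limma voom (adjusted p = 0.0557), with DESeq2 (adjusted p = 0.0515), in a fit of these 2 groups only (adjusted p = 0.209), and in 6 of 26 fits that left out 1 library. *Ccnd1*, at 16.0 ± 0.883 CPM without and 16.1 ± 0.284 CPM with insulin in IR cells, changed by 0.01 (interval -0.36 to 0.38, adjusted p = 0.99). The intervals of the other genes in IR cells lay between -0.30 and 0.40. The differences of the insulin effect between K1030R, ∆CT, or JMO and IR cells gave 0 calls of 10 by edgeR, with 0, 1, and 1 at an unadjusted p below 0.05, where 0.37%, 0.00649%, and 0.279% of all genes were called.

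**Figure D3:**
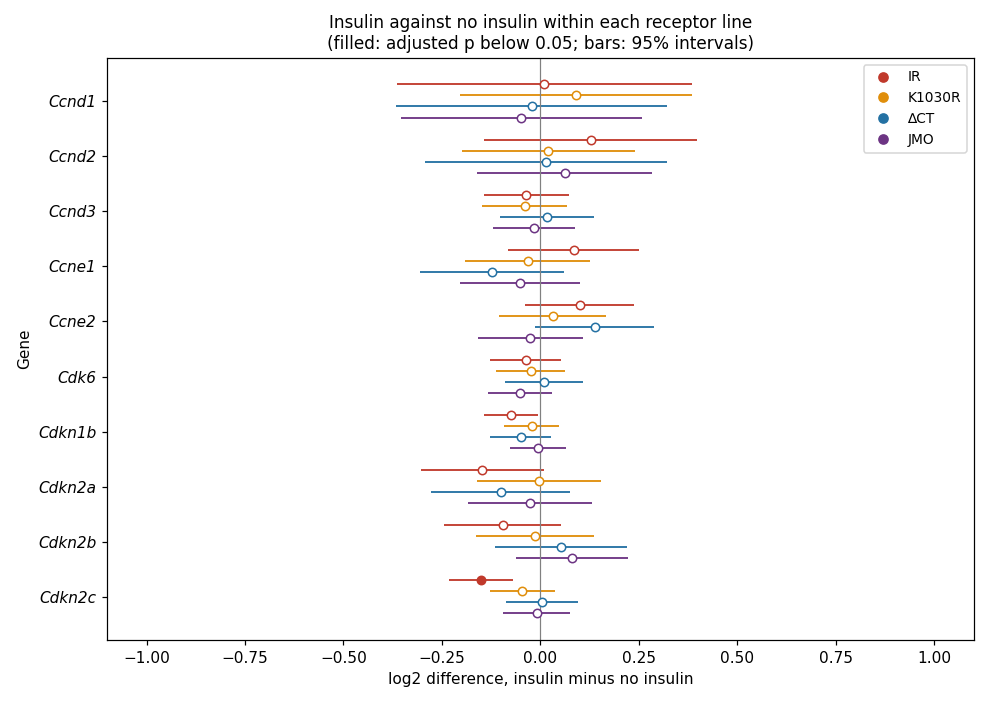
log2 difference between cultures with and without insulin for the 10 genes in each receptor line, with 95% confidence intervals; filled points have an adjusted p below 0.05. All points lie between -0.15 and 0.14 and only *Cdkn2c* in IR cells is filled.

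Insulin did reach genes that act before the cyclins in the same libraries. *Fosl1*, which encodes the AP-1 subunit FRA1, rose in IR cells from 3.63 ± 0.455 to 7.27 ± 0.747 CPM (log2 difference 0.99, adjusted p = 0.0002) and in ∆CT cells from 6.60 ± 1.71 to 13.1 ± 2.09 CPM (n = 2 with insulin; 0.98, adjusted p = 8.6e-05). Its differences were 0.20 in K1030R (adjusted p = 0.94) and 0.13 in JMO cells (adjusted p = 0.92). *Myc* rose by 0.53 in IR (adjusted p = 0.0036) and 0.48 in ∆CT cells (adjusted p = 0.017). *Cdkn1a* rose by 0.22 in IR (adjusted p = 0.020) and 0.25 in ∆CT cells (adjusted p = 0.032). Of the 16 genes listed as upstream of cyclin D and p27, 4 passed in IR, 4 in ∆CT, 2 in JMO, and 0 in K1030R cells. Each was higher with insulin. Of all tested genes, 1.87% passed in IR, 1.01% in ∆CT, 0.364% in JMO, and 0.156% in K1030R cells. The list was chosen with earlier results of these data known. It holds *Jun* and *Junb*, which the study reported as raised by insulin in IR and ∆CT cells. None of the S-phase and mitosis genes passed in any line.

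Without insulin, the genes listed as upstream of cyclin D and p27 were more often lower than higher in IR, K1030R, and ∆CT cells. Of 16, 8 were lower and 4 higher in IR, 10 and 4 in ∆CT, 9 and 4 in K1030R, and 4 and 4 in JMO cells, compared with DKO cells; their median in IR cells was -0.14, against 0.01 for all genes tested, of which 24.1% were lower and 25.6% higher. Of all genes, 20.4% were lower and 21.2% higher in K1030R, 22.9% and 23.4% in ∆CT, and 17.4% and 16.8% in JMO cells. *Fosl1* was at 20.03 ± 0.337 CPM in DKO, 14.5 ± 1.69 in JMO, 8.31 ± 1.28 in K1030R, 6.60 ± 1.71 in ∆CT, and 3.63 ± 0.455 CPM in IR cells. *Myc*, a driver of cyclin transcription, was at 56.2 ± 3.24 CPM in DKO and 23.7 ± 1.80 CPM in IR cells (log2 difference -1.24, adjusted p = 2.2e-10), and was at 50.9 ± 1.58 CPM in JMO cells (-0.14, adjusted p = 0.23). In the contrast of IR, K1030R, and ∆CT against DKO and JMO cells, *Tcf7l2* (0.53) and *Smad3* (0.23), which encode effectors of Wnt and TGFβ signals, were higher.

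Among 21 listed regulators of the *Cdkn2a* and *Cdkn2b* locus, 20 were tested, and 6 were higher and 7 lower in IR than in DKO cells, with 1 and 4 in K1030R, 1 and 7 in ∆CT, and 2 and 6 in JMO cells. Of all tested genes, 25.6% were higher and 24.1% lower in IR, 21.2% and 20.4% in K1030R, 23.4% and 22.9% in ∆CT, and 16.8% and 17.4% in JMO cells. *Hmga2* encodes a chromatin protein known to repress this locus in young stem cells. It was at 349 ± 25.1 CPM in DKO and 133 ± 17.9 CPM in JMO cells. In K1030R, ∆CT, and IR cells it was at 109 ± 11.5, 92.5 ± 21.5, and 53.2 ± 2.53 CPM. *Cdkn2a* was highest in IR and *Cdkn2b* in JMO cells, and the part of *Hmga2* in these levels was not tested. *Kdm6b*, a histone H3K27 demethylase gene, was higher (0.35) and *Id2* lower (-0.52) in the contrast of IR, K1030R, and ∆CT against DKO and JMO cells, and the Polycomb gene *Cbx2* was at 0.15. Of all tested genes, 25.6% were lower and 26.7% higher in that contrast. Of 13 tested senescence markers outside the secretory genes, *Cdkn1a* among them, 8 were lower and 4 higher in that contrast, and in IR cells 7 were lower and 4 higher than in DKO cells. The 2 most increased in the contrast were *Lmnb1* (0.46) and *Hmgb2* (0.23), genes whose loss marks senescent cells. The 2 most decreased were *Plaur* (-0.95) and the p53 target *Mdm2* (-0.48). Since the list holds genes marked by loss beside others, its counts give no direction of senescence.

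Of the 10 tested other CDK and inhibitor genes, 4 were lower and 3 higher in that contrast (median 0.01, as for all genes), with *Cdkn1a* (-0.31) and *Cdk1* (-0.24) lower and *Cdkn2d* (0.18) and *Cdkn3* (0.18) higher. In the same contrast, 25.6% of all tested genes were lower and 26.7% higher. *Cdkn1a* was highest in JMO cells, and its means in IR and K1030R cells lay above the DKO mean. Of 16 pocket protein and E2F genes, 7 were lower and 3 higher (median -0.04), with *E2f5* (0.43) and *E2f6* (0.27) higher and the E2F activator *E2f2* (-0.36) and the DREAM complex gene *Lin54* (-0.35) lower. Of 13 genes for cyclin and p27 turnover, 5 were higher and 2 lower (median 0.05). Among these, *Skp2*, the ubiquitin ligase subunit that degrades p27, was at 0.21 and *Gsk3b*, a cyclin D1 kinase, at 0.22, whereas *Rnf123*, another p27 ligase, was at -0.23 and the cyclin E ligase gene *Fbxw7* at -0.13.

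The genes that cells use in S phase and mitosis were set beside the G1 genes. Against DKO cells, 24.1% of all tested genes were lower and 25.6% higher in IR, and 20.4% and 21.2% in K1030R cells. The shares were 22.9% and 23.4% in ∆CT and 17.4% and 16.8% in JMO cells. Of 20 mitosis genes, 17 were lower and 0 higher in IR than in DKO cells (median -0.26, against 0.01 for all genes), whereas 11 were higher and 1 lower in K1030R and also in ∆CT cells (medians 0.12 and 0.19), and 1 was higher and 4 lower in JMO cells (median -0.03). Their summed level in untreated libraries was 2481 to 2649 CPM in DKO, 2102 to 2230.2 CPM in IR, 2707 to 2915 CPM in K1030R, 2703 to 2967 CPM in ∆CT, and 2522 to 2558 CPM in JMO libraries. Untreated IR libraries lay below all others, and K1030R and ∆CT libraries above DKO libraries. K1030R and ∆CT cells thus had lower *Cdk6* and *Ccne1* and higher *Cdkn1b* than DKO cells, with a higher summed mitosis list. Of 24 S-phase genes, 12 were lower and 7 higher in IR, 5 and 10 in K1030R, 7 and 8 in ∆CT, and 6 and 1 in JMO cells, and the summed level in untreated libraries ranged from 4144 CPM in an IR to 4492 CPM in a K1030R library. *Rrm2*, which encodes a ribonucleotide reductase subunit, was at 139 ± 7.23 CPM in DKO and 74.0 ± 3.54 CPM in IR cells, and *Mcm5*, of the replicative helicase, was higher in all 4 receptor lines, from 0.20 in JMO to 0.42 in K1030R and ∆CT cells. *Cdc20*, which activates the anaphase-promoting complex, was lower in IR (-0.17, adjusted p = 0.0022) and higher in K1030R (0.28) and ∆CT cells (0.35), and the mitotic checkpoint kinase gene *Bub1* was lower in all 4 receptor lines, with log2 differences of -0.49 in IR, -0.13 in K1030R, and -0.12 in ∆CT and JMO cells.

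**Figure D4:**
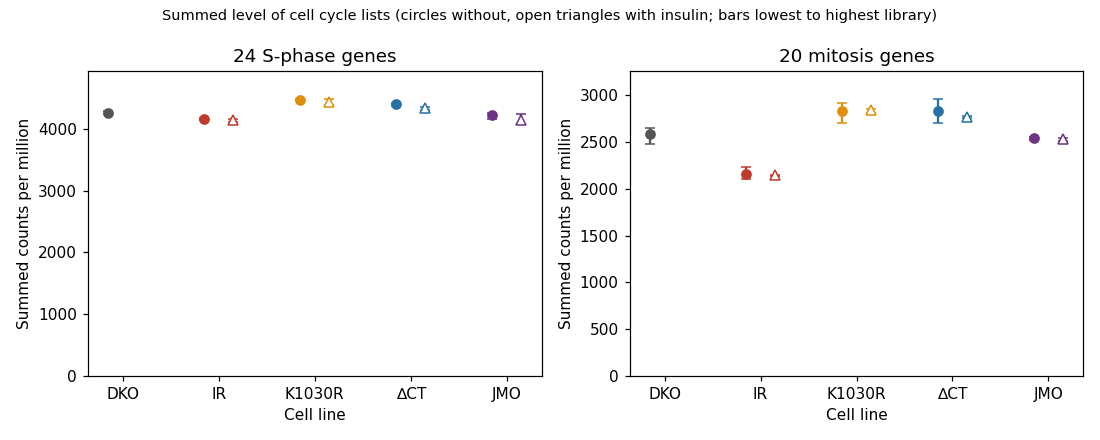
Summed level of 24 S-phase genes and 20 mitosis genes, in CPM on axes that start at 0, by cell line; symbols are means without (circles) and with insulin (open triangles), and bars run from the lowest to the highest library. The mitosis sum is lowest in IR cells, at 2102 to 2230.2 CPM without insulin, and highest in K1030R and ∆CT cells.

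Over the 9 group means on the log2 scale, *Ccnd1* spanned 1.59 and *Ccnd2* 1.28, and no other of the 10 genes spanned 1 or more. Among 2619 other genes, the pattern of *Ccnd1* was most like those of *Tm4sf1* (Pearson r = 0.992), *Rrm2* (r = 0.991), and *Etv5* (r = 0.990), over 9 group means that share libraries and lines. *Etv5*, an ETS factor gene, was at 32.0 CPM in DKO and 16.2 CPM in IR cells, and *Tm4sf1* at 159 and 90.9 CPM. The pattern of *Ccnd2* was most like those of *Ube2cbp* (r = 0.939), *Acta2* (r = 0.936), and *Tagln* (r = 0.921). *Acta2* and *Tagln*, genes of smooth muscle actin and transgelin, were at 317 and 68.5 CPM in ∆CT, 400.1 and 76.9 CPM in IR, 467 and 95.4 CPM in DKO, and 576 and 118 CPM in K1030R cells. With 9 points in a few steps, these values describe likeness only.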

How the data were processed

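RNA-seq was performed on oligo-dT selected RNA as stranded, single-end libraries. Per the study's methods, the authors trimmed reads with fastp, quantified them with kallisto on the Ensembl 98 mouse transcriptome, and summed transcripts to genes with tximport; tool versions and the strand setting are not given in the sources used here. The deposited values are expected counts (estimated counts per gene, not normalized), of which 79.9% were whole numbers, and they were rounded here. Reads from overlapping genes on opposite strands may therefore have been shared. Totals were 17228982 to 24694828 counts per library.

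Genes with over 0.5 CPM in at least 4 of 26 libraries were kept, which left 15402. Counts were scaled by TMM and fitted with the quasi-likelihood model of edgeR 4.0.16 (R 4.3.3), robust, with 1 mean for each of 9 groups and no covariate. P-values were adjusted by Benjamini-Hochberg over all tested genes, called below 0.05, and are two-sided; a 1.5-fold requirement used glmTreat. The biological coefficient of variation was 4.44%. The script was tested on simulated counts. Alternatives were RLE scaling, no filter, a filter of 10 counts in 4 libraries, limma 3.58.1 voom, DESeq2 1.42.0, a replicate block, a fit of the compared groups only, the insulin libraries, and leaving out each library.

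The 10 genes and 13 gene lists (175 symbols, 171 in the table) were chosen with earlier results of these data known. Text names all 10 genes, *Cdkn1a*, *Cdk2*, and *Cdk4*, and, per list, up to 2 genes higher and 2 lower with the largest change in the contrast of IR, K1030R, and ∆CT against DKO and JMO cells; *Col1a1* and the marker genes named at 0 or below the filter were chosen after their values were seen. For a gene whose group means span at least 1 on the log2 scale, the 3 genes with the highest Pearson r were named. Coordinates, exon lengths, and 31-base words came from GENCODE M21 (GRCm38).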

Additional observations from a re-analysis of the deposited data

How the results depend on the processing

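With a required change of 1.5-fold, the calls fell from 26 to 5 against DKO cells, from 37 to 8 between receptor lines, from 10 to 1 in the contrast of IR, K1030R, and ∆CT against DKO and JMO cells, and from 1 to 0 for insulin. The insulin count was 2 with no filter and 0 with limma voom, DESeq2, or a fit of the 2 groups only, and ranged from 0 to 2 when 1 library was left out, with 2 without IR basal replicate 3. Leaving out 1 library turned the direction of JMO against DKO differences that had not passed, within ranges of -0.013 to 0.19 for *Ccnd2*, -0.063 to 0.028 for *Ccnd3*, and -0.015 to 0.039 for *Cdkn2c*. Among 694 values under the alternatives other than leaving out a library, 607 kept direction and call, 73 lost the call, 14 gained it, and 0 turned direction. The 1.5-fold requirement was among these alternatives and gave 60 of the lost calls. The difference of *Ccnd1* between ∆CT and DKO cells missed the threshold in a fit of these 2 groups only (adjusted p = 0.0978). That of *Cdkn2a* between JMO and DKO cells, which had not passed, did so with no filter (adjusted p = 9.02e-05), limma voom (0.0483), a fit of the 2 groups (0.0015), and without IR basal replicate 3 (0.0221). The cause was not tested in any of these.

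Replicate numbers did not pair the samples: over 100 pairs with equal numbers, the correlation of the residuals was -0.00111 in the median and 0.0959 at most. A replicate block gave 28 calls against DKO cells, 39 between receptor lines, 10 in the contrast of line means, 1 for insulin, 0 for differences of insulin effects, and 10 for any difference among lines. Against DKO cells, the calls gained with the block were *Cdkn2b* in IR (0.14, adjusted p = 0.0300) and *Cdk6* in JMO cells (-0.10, adjusted p = 0.0263). *Ccnd2*, at 58 counts or more per library, was the gene most limited by depth.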
